A study of Mus musculus with 24 samples.

Results

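The pancreas of 6 circadian disrupted mice was compared with that of 6 normal circadian mice on day 1, by RNA-seq of the whole organ. These 12 mice were chosen by their labels from the 24 mice of the series. The disrupted group held 3 males and 3 females, and so did the normal group. All 12 were C57Bl/6J mice, an inbred laboratory strain, taken at zeitgeber time 8, that is 8 hours after lights on, and no genetic change is named for either group. The other 12 mice of the series are disrupted and normal mice of a late time point, and they are used here only to see whether a day-1 difference recurred. How the rhythm was disrupted, and from which event day 1 was counted, is not given in the sources used here. The series' design text counts mice per condition and time point, so each library is treated as 1 mouse.

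The circadian clock is a feedback loop in which the activators BMAL1, encoded by Arntl, and CLOCK switch on genes through E-box sequences, among them the period, cryptochrome and REV-ERB genes whose proteins then shut the activators down. Clock proteins such as DBP and the REV-ERBs pass the rhythm on to genes outside the loop through D-box and RORE sequences. The exocrine pancreas consists mainly of acinar cells, which make and fold large amounts of digestive enzymes in the endoplasmic reticulum. They store the enzymes in secretory granules and release them after meals. Its clock can be set by light, through the brain, and by the time of feeding.

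The counts were those of exocrine pancreas. The 10 genes of highest mean level were all digestive enzyme genes, and the 33 listed enzyme genes took 82.3% to 83.5% of the counts of a disrupted mouse and 81.7% to 83.1% of those of a normal mouse. Depth ran from 33131844 to 59811045 counts in disrupted mice and from 32789386 to 42369554 in normal mice, with disrupted male 3 the deepest. Single libraries stood apart in markers of other cells. The summed level of the 13 tested lymphocyte markers was 217 CPM (a gene's reads scaled to library size) in disrupted female 1, against at most 55.0 CPM in the other disrupted mice, and 94.9 CPM in normal female 3, against at most 29.8 CPM in the other normal mice. In whole tissue, fewer cells of a type and less RNA per cell cannot be told apart.

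Of 13605 genes tested, 456 differed between disrupted and normal mice (3.35%), 222 higher (1.63%) and 234 lower (1.72%) in the disrupted mice. A gene is called here when its adjusted p (Benjamini-Hochberg) in edgeR's quasi-likelihood test, with sex as a block, is under 0.05. The core clock gave 16 of these calls, from 24 tested members, with 4 higher and 12 lower. Arntl was the largest rise of the core clock, with a log2 fold change of 4.54 ± 0.18 (SE), and Dbp the largest fall, at -5.41 ± 0.21. The other 440 calls lay outside the core clock, 218 higher and 222 lower. The median of all tested genes was 0.0044 on the log2 scale.

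Outside the core clock most differences were small. Of the 440 genes, 224 moved by less than 0.5 on the log2 scale, 154 by 0.5 to 1, and 62 by more than 1, which is over 2-fold and held for 77 of all genes tested (0.566%). The 62 were 38 higher and 24 lower, whereas those under 0.5 were 90 higher and 134 lower. The median log2 fold change was 0.56 for the genes that rose and -0.43 for those that fell. Over all genes tested, the 5th and the 95th percentile were -0.36 and 0.52. In 324 genes (2.38%), 165 higher (1.21%) and 159 lower (1.17%), the 6 disrupted mice did not overlap the 6 normal mice, and among the 440 calls this held for 227, 125 higher and 102 lower. The called genes outside the core clock took 0.822% of the counts in disrupted mice and 0.825% in normal mice on average, so the bulk of the pancreas transcriptome lay outside them.

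Calls were more frequent among abundant genes, where the test sees smaller differences. With the tested genes split in 4 equal sets by mean level, in the lowest set (0.128 to 1.06 CPM) 1.44% of genes were called, with a median absolute log2 fold change of 1.49. In the highest set, from 8.3 CPM upward, 5.44% were called, with a median of 0.35. With lymphocyte and adipocyte marker scores as covariates 83 genes passed, 48 higher and 35 lower, and 67 of the 440 calls were among them. Without both disrupted female 1 and disrupted male 3, the lymphocyte-rich and the deepest library, 424 genes passed, and 316 of the 440 calls were among them. Of the 440, 240 were called in every one of the 12 fits that leave out 1 mouse, 127 higher and 113 lower. Upper quartile scaling gave 266 higher and 188 lower, and moved the median of all genes to 0.0274.

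**Figure D1:**
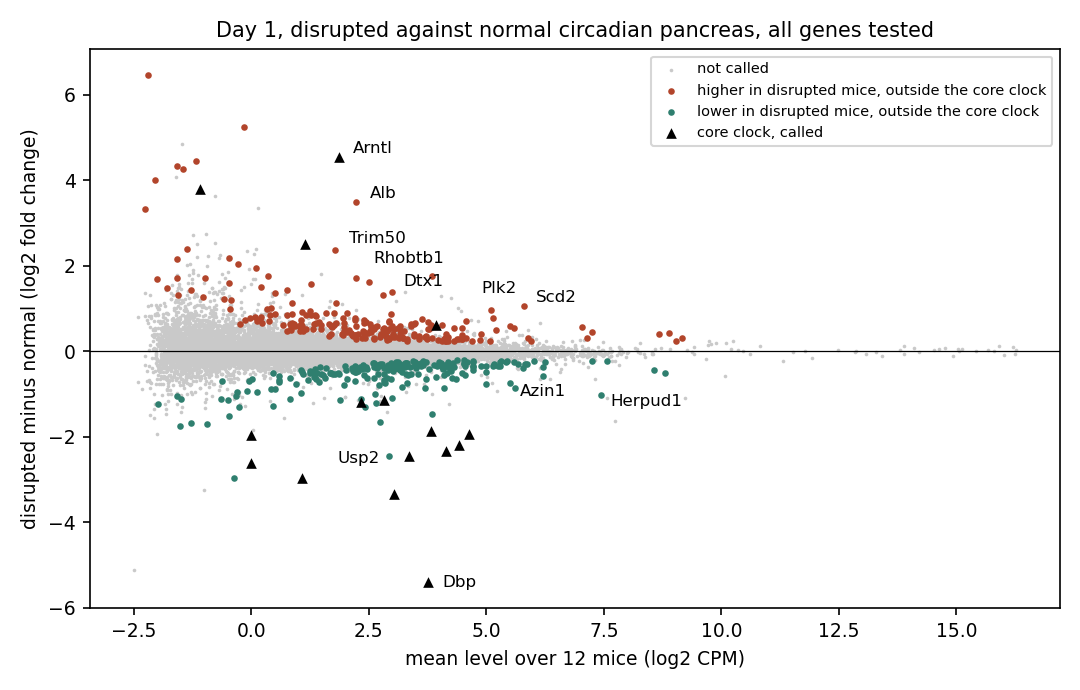
Log2 fold change of disrupted minus normal mice (y axis) against the mean level of each gene in log2 CPM (x axis) for the 13605 genes tested, with 218 called genes higher and 222 lower outside the core clock in colour and the 16 called core clock genes as triangles. The called genes spread over all levels, and the most abundant genes, at the right, lie close to 0.

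The clearest rise outside the core clock was in Dtx1 (ENSMUSG00000029603), which encodes an E3 ubiquitin ligase that acts in Notch signalling, on chromosome 5 at 120680202 to 120711927 of GRCm38. Its level was 10.0, 11.2 and 13.3 CPM (lowest, median, highest) in disrupted mice, against 3.54, 4.14 and 5.59 CPM in normal mice. Every disrupted mouse lay above every normal mouse. The log2 fold change was 1.39 ± 0.09 (edgeR adjusted p = 5.91e-08), 1.53 in males and 1.25 in females. Rhobtb1, an atypical small GTPase gene on chromosome 10 at 69151434 to 69291791, had 6.37, 7.83 and 11.3 CPM in disrupted mice, against 2.54, 2.74 and 3.18 CPM in normal mice. Disrupted female 2 was the highest, and the groups did not overlap. The log2 fold change was 1.61 ± 0.13 (edgeR adjusted p = 4.49e-06).

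Ypel2, a member of the yippee-like family, was at 7.22, 10.6 and 11.8 CPM in disrupted mice, against 3.45, 3.96 and 4.56 CPM in normal mice. Here disrupted male 2 and disrupted female 3 were low for their group, at 7.24 and 7.22 CPM, and still above all normal mice. The log2 fold change was 1.32 ± 0.14 (edgeR adjusted p = 0.000106). Rassf3, which encodes a protein with a Ras association domain, had 15, 16.7 and 19.0 CPM in disrupted mice, against 9.41, 10.4 and 11.2 CPM in normal mice. Its rise of 0.70 ± 0.07 was small but tight within both groups (edgeR adjusted p = 6.66e-06). Plk2, a stress-responsive polo-like kinase gene, had 38.2, 44.1 and 57.3 CPM in disrupted mice, against 18.4, 20.5 and 30.1 CPM in normal mice, with no overlap. Its log2 fold change was 0.97 ± 0.14 (edgeR adjusted p = 0.00307).

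Several rises were in genes of low level. Nr1h4, which encodes the bile acid receptor FXR, had 1.17, 1.79 and 2.48 CPM in disrupted mice, against 0.37, 0.53 and 0.7 CPM in normal mice. The groups did not overlap, and the log2 fold change was 1.76 ± 0.21 (edgeR adjusted p = 4.69e-05). Ranbp3l, which encodes a Ran-binding protein, had 2.85, 3.41 and 4.19 CPM in disrupted mice, against 0.895, 0.986 and 1.92 CPM in normal mice. Normal female 3 was the highest normal mouse, below all disrupted mice, and the log2 fold change was 1.57 ± 0.18 (edgeR adjusted p = 4.58e-05). The ubiquitin ligase gene Rnf125 rose by 1.96 ± 0.19 (edgeR adjusted p = 6.66e-06), 1.95 in males and 1.96 in females. Trim50, another ubiquitin ligase gene, on chromosome 5 at 135353295 to 135368005, had 2.97, 5.67 and 7.64 CPM in disrupted mice, against 0.579, 1.03 and 1.54 CPM in normal mice, a log2 fold change of 2.38 ± 0.30 (edgeR adjusted p = 0.00116). Its neighbour Fkbp6, on the same chromosome at 135291704 to 135350044 and named after its values were seen, rose by 2.39 ± 0.38. Fkbp6 had at most 0.143 CPM in a normal mouse and at least 0.239 CPM in a disrupted mouse. It passed the low-count filter through the disrupted mice alone, so its call is no separate evidence of a rise, and it was not tested in females alone.

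Other large rises without overlap were of several kinds. Spon2, a matrix protein gene, rose by 1.51 ± 0.22, and Leo1, a subunit gene of the PAF1 transcription complex, by 1.43 ± 0.20. The syntaxin gene Stx1a, which serves vesicle fusion, rose by 1.37 ± 0.18. Cdkl1, a kinase gene, rose by 2.04 ± 0.20 and Akap7, whose product anchors protein kinase A, by 1.13 ± 0.11. Cdkn1a, which encodes the cell cycle inhibitor p21, had 3.21, 7.14 and 10.5 CPM in disrupted mice, against 1.3, 2.12 and 3.0 CPM in normal mice. The groups did not overlap, with a log2 fold change of 1.71 ± 0.35 (edgeR adjusted p = 0.029), but its call was lost in 7 of the 12 fits that leave out a mouse, with adjusted p up to 0.0736 in edgeR's test without normal female 2.

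Among the genes that fell outside the core clock was the deubiquitinase gene Usp2, on chromosome 9 at 44067021 to 44095627, with a log2 fold change of -2.46 ± 0.18 (edgeR adjusted p = 1.01e-05), -2.27 in males and -2.64 in females. Its level was 1.99, 2.19 and 3.11 CPM in disrupted mice, against 7.61, 14.8 and 15.5 CPM in normal mice. Normal males 1 and 2, at 9.26 and 7.61 CPM, were low for their group, and every disrupted mouse lay below them.

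Herpud1 (ENSMUSG00000031770), on chromosome 8 at 94386438 to 94395377, encodes a protein of the secretory pathway. Its product sits in the membrane of the endoplasmic reticulum and helps to remove misfolded proteins. It had 89.0, 121 and 125 CPM in disrupted mice, against 197, 222 and 274 CPM in normal mice. Disrupted female 1 was the lowest, the groups did not overlap, and the log2 fold change was -1.02 ± 0.09 (edgeR adjusted p = 6.66e-06). Azin1, the gene of the antizyme inhibitor that protects ornithine decarboxylase, the entry enzyme of polyamine synthesis, had 28.4, 32.5 and 43.1 CPM in disrupted mice, against 44.9, 56.3 and 68.5 CPM in normal mice. It fell by 0.75 ± 0.07 on the log2 scale (edgeR adjusted p = 8.39e-06). The groups did not overlap. Amd1, named after its values were seen and encoding another enzyme of polyamine synthesis, fell by 0.34 ± 0.08 (edgeR adjusted p = 0.0153), with overlap.

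Of the called genes with the highest mean CPM, Chd9, a chromatin remodeller gene, fell by 0.43 ± 0.10, and Ddx5, an RNA helicase gene, by 0.23 ± 0.05. Chd9 had 277, 318 and 368 CPM in disrupted mice, against 347, 441 and 527 CPM in normal mice, so the groups overlapped. Ddx5 had 132, 140 and 145 CPM in disrupted mice, against 148, 165 and 174 CPM in normal mice, without overlap. Mlec, the gene of malectin, a sugar-binding protein of the endoplasmic reticulum, rose by 0.45 ± 0.10. The calls of Chd9, Ddx5 and Mlec were lost in 4, 1 and 5 of the 12 fits that leave out a mouse, with edgeR adjusted p up to 0.0533 for Chd9, 0.0522 for Ddx5 and 0.0568 for Mlec.

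Arl5b, which encodes a small GTPase of the Golgi, had 5.54, 7.32 and 10.5 CPM in disrupted mice, against 15.5, 22.1 and 25.9 CPM in normal mice. The groups did not overlap, with a log2 fold change of -1.46 ± 0.18 (edgeR adjusted p = 0.00129), -1.88 in males and -1.07 in females. Coq10b, whose product binds coenzyme Q, had 1.73, 2.35 and 2.68 CPM in disrupted mice, against 3.86, 5.28 and 5.92 CPM in normal mice. Its log2 fold change was -1.15 ± 0.12 (edgeR adjusted p = 2.18e-05), again with no overlap. The prostaglandin E2 receptor gene Ptger4 fell by 1.11 ± 0.16 and Csrnp1, a nuclear protein gene, by 1.28 ± 0.21. Tns2, the gene of a protein at cell adhesions, fell by 0.85 ± 0.10, Arhgef26, an exchange factor gene for small GTPases, by 0.86 ± 0.15, the protease gene Pcsk4 by 0.96 ± 0.17 and the kinase gene Ripk4 by 0.78 ± 0.12. Tdh, the gene of threonine dehydrogenase, fell by 1.22 ± 0.27, a call lost in 8 of 12 fits that leave out a mouse, with edgeR adjusted p up to 0.0851 without normal female 2.

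Timp3 and Retreg1, named after their values were seen, encode a tissue inhibitor of metalloproteinases and a receptor for autophagy of the endoplasmic reticulum. Timp3 fell by 0.63 ± 0.07 (edgeR adjusted p = 2.52e-05) and Retreg1 by 0.57 ± 0.07 (edgeR adjusted p = 9.45e-05), each without overlap. Where exons of another gene overlap on the other strand, as for Usp2, Rhobtb1, Azin1, Coq10b, Ptger4, Csrnp1 and Timp3, reads of the pair cannot be told apart if the counting did not use strand, and its strand setting is not given in the sources used here. Thra, which overlaps Nr1d1, rose by 0.52 ± 0.08, and Sphk2, which overlaps Dbp, rose by 0.33 ± 0.07, and Nr1d1 and Dbp themselves fell.

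**Figure D2:**
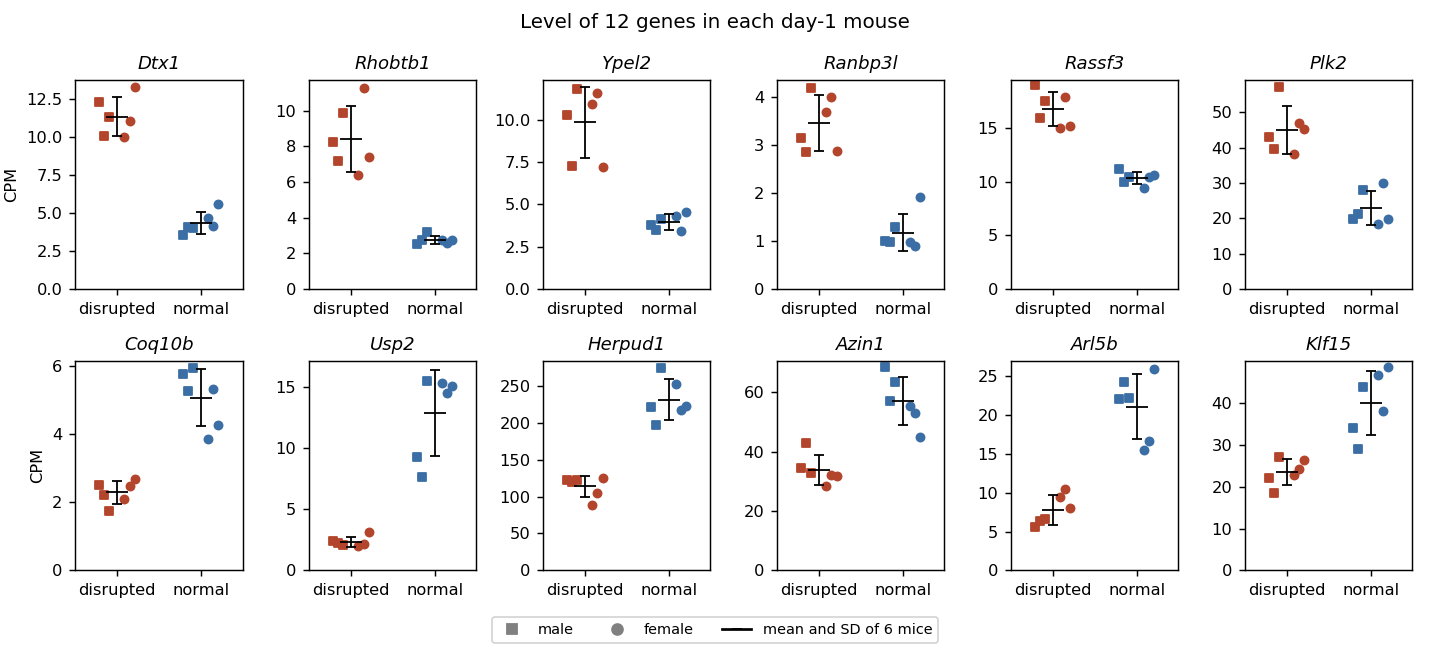
Level in CPM (y axis, starting at 0) of 12 genes in each day-1 mouse, with squares for males, circles for females, and the mean and SD of the 6 mice of a condition. In all 12 panels the 6 disrupted mice, at the left, lie wholly above (upper row) or wholly below (lower row) the 6 normal mice.

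Sequences upstream of the start site are shown for 3 genes that fell and 1 that rose, as examples that hold a motif a clock factor is known to bind. Only genes with a single RefSeq promoter window were searched, and named genes without one may also hold such a motif. Of the searched genes named here outside the core clock, some others hold such a motif and are not shown. They are Alb (D-box) and Elovl5 (E-box), which rose, and Nr4a2 (RORE core) and Bnip3 (E-box), which fell. Matches of other motifs are left in lower case. The windows run from 250 bases before to 50 after the RefSeq start site (GRCm38.p6) and are printed 5′ to 3′ along the gene. Capitals mark the E-box CACGTG in Coq10b, Arl5b and Klf15, a D-box in Coq10b (TTACATAA, the reverse complement of TTATGTAA), and the RORE core TAGGTCA in Leo1. Klf15, a Krüppel-like transcription factor gene, had 18.6, 23.6 and 27.0 CPM in disrupted mice, against 29.0, 41.0 and 48.5 CPM in normal mice. It fell by 0.76 ± 0.11 (edgeR adjusted p = 0.00193), and the groups did not overlap.
Coq10b, chr1:55052520-55052819, plus strand: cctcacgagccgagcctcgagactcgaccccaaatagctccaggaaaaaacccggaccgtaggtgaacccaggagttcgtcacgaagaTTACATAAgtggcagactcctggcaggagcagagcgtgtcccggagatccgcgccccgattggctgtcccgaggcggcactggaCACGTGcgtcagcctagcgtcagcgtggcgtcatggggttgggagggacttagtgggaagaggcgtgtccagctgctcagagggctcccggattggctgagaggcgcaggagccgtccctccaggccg
Arl5b, chr2:15055070-15055369, plus strand: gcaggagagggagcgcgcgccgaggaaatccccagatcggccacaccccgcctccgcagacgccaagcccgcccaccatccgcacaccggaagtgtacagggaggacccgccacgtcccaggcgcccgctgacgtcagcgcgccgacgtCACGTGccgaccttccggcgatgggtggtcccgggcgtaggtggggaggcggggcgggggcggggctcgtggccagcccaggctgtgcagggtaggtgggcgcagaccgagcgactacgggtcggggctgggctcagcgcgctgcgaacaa
Klf15, chr6:90462326-90462625, plus strand: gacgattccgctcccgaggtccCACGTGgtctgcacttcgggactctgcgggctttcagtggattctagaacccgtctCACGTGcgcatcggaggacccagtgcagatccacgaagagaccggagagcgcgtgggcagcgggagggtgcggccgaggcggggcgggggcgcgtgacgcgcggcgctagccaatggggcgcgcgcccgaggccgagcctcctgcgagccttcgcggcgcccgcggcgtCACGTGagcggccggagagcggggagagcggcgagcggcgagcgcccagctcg
Leo1, chr9:75441274-75441573, plus strand: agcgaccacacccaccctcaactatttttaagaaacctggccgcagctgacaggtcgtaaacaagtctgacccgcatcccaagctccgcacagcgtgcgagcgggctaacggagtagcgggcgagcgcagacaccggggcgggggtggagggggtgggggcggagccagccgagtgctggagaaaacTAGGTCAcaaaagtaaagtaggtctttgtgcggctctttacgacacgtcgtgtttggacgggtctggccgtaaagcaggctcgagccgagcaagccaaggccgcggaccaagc

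Across genes, the E-box was about as frequent in the windows of called genes as in all. Among the 8105 tested genes with a single window, 10.3% held an E-box on either strand. The share was 12.3% of the 138 genes that fell outside the core clock and 7.14% of the 112 that rose. The D-box, searched as TTATGTAA or TTACGTAA, was in 0.725% of the genes that fell, 1.79% of those that rose and 0.592% of all. The RORE core, TAGGTCA or TGGGTCA, was in 3.62%, 3.57% and 4.85% for genes that fell, genes that rose and all genes. The first 6 letters of TGACGTGG and TGACGTCA are shared. Searches of both strands for TTCNNGAA (the heat shock core), TGACGTGG (bound by XBP1 and ATF6), TGACGTCA (the cAMP element) and TCACCCCAC (a sterol element) found the heat shock core in 4.35%, 1.79% and 6.69%, the XBP1 and ATF6 element in 0.725%, 0.0% and 0.765%, the cAMP element in 2.9%, 1.79% and 3.23%, and the sterol element in 0.725%, 0.893% and 0.419%. The windows of Usp2, Herpud1 and Dtx1 held none of these letters.

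To describe the effect by function, 52 gene lists with 881 tested genes were counted, each beside the background of 3.35% called. Of the 440 calls outside the core clock, 55 were on a list, and 26 lists held no call. The plot by gene list shows the members of those with a call and of the digestive enzyme lists.

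Of 16 tested genes that follow the clock in many tissues without being part of it, 5 rose and 8 fell, with a median of -0.42. The list was chosen with earlier results of these data known, so its count is not independent evidence. Usp2, Leo1, Ypel2, Cdkn1a and Tns2, described above, were among them. Of the others, Dtx4, a relative of Dtx1, rose by 0.29 ± 0.07, and Hif3a, of the hypoxia factor family, fell by 1.69 ± 0.37, Fmo2, a monooxygenase gene, by 0.48 ± 0.10 and the tetraspanin gene Tspan4 by 0.72 ± 0.10. The cytochrome P450 reductase gene Por fell by 0.67 ± 0.09 (edgeR adjusted p = 0.000115), with 4.62, 5.14 and 6.45 CPM in disrupted mice, against 6.66, 8.78 and 11.1 CPM in normal mice. The groups lay next to each other without overlapping. Klf10, a transcription factor gene, rose by 0.85 ± 0.16. Wee1, a cell cycle kinase gene, had a log2 fold change of -0.35 ± 0.10 that missed the threshold (edgeR adjusted p = 0.0505), and Nampt, of NAD salvage, one of 0.11 ± 0.09 (edgeR adjusted p = 0.613). None of the 16 tested genes of NAD salvage and the sirtuins was called by edgeR, with a median of -0.02, 1 at an unadjusted p under 0.05 and 1 called by DESeq2, Naprt, lower.

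Of 17 glucocorticoid-responsive genes, the receptor gene among them, 1 rose and 3 fell, with a median of -0.39. The 3 were Per1, of the core clock, Klf9 and Tsc22d3, and the gene that rose was Cdkn1a. Klf9, a Krüppel-like factor gene, had 14.4, 15.2 and 21.1 CPM in disrupted mice, against 21.6, 26 and 26.5 CPM in normal mice. Disrupted female 2 was just below the lowest normal mouse, and the fall was 0.65 ± 0.08 (edgeR adjusted p = 6.78e-05). Tsc22d3, which encodes the leucine zipper protein GILZ, had 6.42, 7.37 and 8.25 CPM in disrupted mice, against 10.2, 12.2 and 15.4 CPM in normal mice, and fell by 0.75 ± 0.10 (edgeR adjusted p = 0.000187). Fkbp5, at -0.86 ± 0.28 (edgeR adjusted p = 0.143), and Sgk1, at -0.75 ± 0.22 (edgeR adjusted p = 0.107), missed the threshold, and the receptor gene Nr3c1 had a value of -0.14 ± 0.09. At an unadjusted p under 0.05 edgeR had 9 of the 17. DESeq2 called 1 higher and 7 lower, with Fkbp5, Sgk1, Errfi1 and Pdk4 added as lower, at edgeR values of -0.81 ± 0.23 for Errfi1 (edgeR adjusted p = 0.103) and -1.85 ± 0.49 for Pdk4 (edgeR adjusted p = 0.0684).

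The digestive enzyme genes, the main product of the tissue, gave no call in 33 tested members by edgeR or by DESeq2, and 2 had an unadjusted p under 0.05. The medians were 0.02 for 7 amylase genes, -0.06 for 9 trypsinogens and Spink1, 0.01 for 11 elastases, chymotrypsinogens and carboxypeptidases, and 0.03 for 6 lipases and colipase. The elastase gene Cela2a, for example, averaged 52900 ± 4640 CPM in disrupted mice and 52100 ± 2900 CPM in normal mice (SD, n = 6 each). Near-identical copies among the amylases and trypsinogens share reads by estimation, so a single copy is uncertain. Of 11 acinar transcription factor genes, Gata4 rose by 0.29 ± 0.07 and Foxa2 by 0.48 ± 0.12. The call of Foxa2 was lost in 9 of 12 fits that leave out a mouse and that of Gata4 in 1, without normal male 3 (edgeR adjusted p = 0.0549). Bhlha15, the MIST1 gene, had a value of -0.23 ± 0.10 (edgeR adjusted p = 0.258) and Ptf1a one of 0.55 ± 0.17 (edgeR adjusted p = 0.114).

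Among 23 tested genes of secretagogue receptors and granule release, Rab27b, a GTPase gene of secretory granules, rose and Vipr1, a receptor gene for the peptide VIP, fell. Rab27b had 11.4, 12.3 and 14.1 CPM in disrupted mice, against 7.59, 7.97 and 9.81 CPM in normal mice. All disrupted mice were above all normal mice, with a log2 fold change of 0.59 ± 0.06 (edgeR adjusted p = 2.18e-05). The fall of Vipr1, 0.34 ± 0.09, was lost in 8 of 12 fits that leave out a mouse. The cholecystokinin receptor gene Cckar had a value of 0.06 ± 0.07.

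Over the lists of the secretory pathway, 106 genes in all, 1 rose and 5 fell, or 5.66%, beside the 3.35% of all tested genes called. Of 11 genes of endoplasmic reticulum stress sensors and their transcription factors, 3 fell and none rose, with a median of -0.21. Ern1, which encodes the stress sensor IRE1, fell by 0.34 ± 0.06 (edgeR adjusted p = 0.00458), and the phosphatase subunit genes Ppp1r15b and Ppp1r15a, which reverse the translation block of the stress response, by 0.33 ± 0.06 and 0.38 ± 0.07. Ppp1r15b had 29.9, 34.9 and 37.0 CPM in disrupted mice, against 39.1, 43.5 and 46.7 CPM in normal mice, without overlap. Xbp1 had a value of -0.01 ± 0.06. Eif2ak3, the PERK gene, had one of 0.34 ± 0.11 (edgeR adjusted p = 0.12), and DESeq2 called it higher. Of 19 genes of degradation from the endoplasmic reticulum, Herpud1 fell and Sel1l, an adaptor of the same ligase complex, rose by 0.23 ± 0.06, with a list median of -0.06. The Sel1l groups overlapped, and its call was lost in 11 of 12 fits that leave out a mouse. No call was made by edgeR among 22 chaperone and folding genes, with a median of -0.02 and 6 at an unadjusted p under 0.05. DESeq2 called 3 of them lower, Hspa5, the gene of the chaperone BiP, Hyou1 and Dnajb9, with edgeR values of -0.32 ± 0.10, -0.41 ± 0.12 and -0.42 ± 0.14, and upper quartile scaling turned the median to 0.001. Of 24 genes of the translocon, signal peptidase and glycosylation none was called by either tool, with a median of 0.02 and 1 at an unadjusted p under 0.05.

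Genes of amino acid supply were lower as far as they were called. Of 20 targets of the transcription factor ATF4, 5 fell and none rose, with a median of -0.31. Mthfd2, an enzyme of mitochondrial folate metabolism, fell by 0.49 ± 0.09 (edgeR adjusted p = 0.00657), with 21, 25.5 and 32.3 CPM in disrupted mice, against 30.4, 37.0 and 43.1 CPM in normal mice, an overlap at the edge. Gpt2, an alanine transaminase gene, fell by 0.60 ± 0.12 without overlap, -0.27 in males and -0.92 in females. The amino acid transporter genes Slc7a5 and Slc38a2 fell by 0.86 ± 0.17 and 0.29 ± 0.07, and the lipoprotein receptor gene Vldlr by 0.36 ± 0.08. Calls were lost on leaving out a mouse for Slc7a5 and Slc38a2 in 4 fits each and for Vldlr in 1, without normal female 2 (edgeR adjusted p = 0.0502). Asns, of asparagine synthesis, had a value of -0.13 ± 0.06 (edgeR adjusted p = 0.247) and Chac1 one of -0.76 ± 0.46. Of 20 cytosolic tRNA synthetase genes 2 fell, with a median of -0.17. Vars had 16.5, 18 and 20.7 CPM in disrupted mice, against 23.2, 26.4 and 29.2 CPM in normal mice, a fall of 0.50 ± 0.06 without overlap (edgeR adjusted p = 9.78e-05), and Sars fell by 0.25 ± 0.05. Of 79 ribosomal protein genes 1 fell, Rpl3 by 0.22 ± 0.05, a call lost in 7 of 12 fits that leave out a mouse, with a list median of -0.06. None of 38 proteasome subunit genes was called by edgeR or DESeq2, with a median of -0.01 and 5 at an unadjusted p under 0.05.

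Lipid synthesis genes were higher as far as they were called. Of 16 genes of fatty acid synthesis, desaturation and elongation 3 rose and none fell, with a median of 0.41, which was 0.18 without disrupted female 1. The desaturase gene Scd2 had 51.1, 73.0 and 112 CPM in disrupted mice, against 30.0, 37.2 and 39.8 CPM in normal mice. Disrupted female 3 was the highest and the groups did not overlap, with a log2 fold change of 1.05 ± 0.18 (edgeR adjusted p = 0.0112). Elovl5, an elongase gene, rose by 0.47 ± 0.12 and Srebf1, which encodes a regulator of lipid synthesis, by 0.30 ± 0.08, calls that were lost in 10 and 8 of the 12 fits that leave out a mouse. The fatty acid synthase gene Fasn averaged 35.9 ± 25.5 CPM in disrupted mice and 20.9 ± 2.85 CPM in normal mice (SD, n = 6 each) and was not called (edgeR adjusted p = 0.286).

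Of 26 genes of cholesterol synthesis and uptake 3 rose and none fell, with a median of 0.26. Hmgcs1, an early enzyme of the pathway, had 5.01, 6.01 and 6.68 CPM in disrupted mice, against 3.7, 4.37 and 4.86 CPM in normal mice, without overlap, and rose by 0.46 ± 0.09 (edgeR adjusted p = 0.00543). Idi1 rose by 0.67 ± 0.18 and Stard4, a cholesterol carrier gene, by 0.74 ± 0.19, with the calls lost in 8 and 9 of the 12 fits that leave out a mouse. In the other direction, Acadl, of fatty acid oxidation, fell by 0.52 ± 0.10 (edgeR adjusted p = 0.00424), the single edgeR call among 20 genes of that list. The list median was -0.12, and DESeq2 also called Acaa1a lower. Lipoprotein lipase, Lpl, a member of the adipocyte marker list, rose by 0.50 ± 0.08 (edgeR adjusted p = 0.00163), with 38.4, 41.6 and 50.7 CPM in disrupted mice, against 25.6, 30.4 and 36.1 CPM in normal mice. Lpl was the single call of the 11 tested adipocyte markers, of which 8 had a positive and 3 a negative value. The median of that list was 0.27, and -0.32 without disrupted female 1. The summed adipocyte markers had 54.2 to 128 CPM in disrupted mice and 48.3 to 88.9 CPM in normal mice, with disrupted female 1 and normal female 3 the highest. With the lymphocyte and adipocyte scores as covariates in edgeR's fit the values kept their sign and lost their calls, at 0.99 for Scd2 (adjusted p = 0.167), 0.55 for Elovl5 (0.378), 0.31 for Srebf1 (0.296), 0.24 for Hmgcs1 (0.662), 0.38 for Idi1 (0.751), 0.38 for Stard4 (0.795), 0.42 for Lpl (0.155) and -0.39 for Acadl (0.499). Lpl is itself a member of the adipocyte score, so its value in that fit is partly adjusted for its own level. The fatty acid synthesis median was 0.182 and the cholesterol median 0.229 in that fit.

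Among 13 mitochondrially encoded protein genes 4 rose and none fell, with a median of 0.30. All 13 had a positive value, between 0.09 and 1.31, and 8 were at an unadjusted p under 0.05. DESeq2 called 7 higher, the 4 and mt-Nd4, of complex I, mt-Co1, of complex IV, and mt-Cytb, of complex III, whose edgeR values were 0.24 ± 0.07, 0.12 ± 0.05 and 0.25 ± 0.07. All 4 that edgeR called, mt-Nd1, mt-Nd2, mt-Nd5 and mt-Nd6, encode subunits of respiratory complex I. mt-Nd1 had 521, 535 and 602 CPM in disrupted mice, against 343, 405 and 455 CPM in normal mice. Normal female 3 was the lowest and disrupted female 3 the highest, without overlap, and the log2 fold change was 0.44 ± 0.06 (edgeR adjusted p = 0.000465), 0.31 in males and 0.57 in females. mt-Nd2 rose by 0.41 ± 0.07, mt-Nd5 by 0.30 ± 0.06 and mt-Nd6 by 0.32 ± 0.07, and mt-Nd5 and mt-Nd6 overlap on opposite strands. The share of all counts on the mitochondrial chromosome was 0.566% to 0.715% in disrupted mice, with a median of 0.632%, and 0.499% to 0.586% in normal mice, with a median of 0.53%. The groups overlapped slightly (exact two-sided permutation p = 0.00866 over 924 splits, adjusted p = 0.0346 over 4 library measures), and those splits did not keep the sexes apart. Within each sex the groups did not overlap, with 0.566% to 0.646% in disrupted males, against 0.499% to 0.533% in normal males, and 0.618% to 0.715% in disrupted females, against 0.514% to 0.586% in normal females. With mice exchanged within each sex only, a test added after the data were seen, the exact two-sided permutation p was 0.005 over 400 splits, the smallest they can give. Of 46 nuclear genes of the respiratory chain none was called by edgeR or DESeq2, with a median of 0.01 and 3 at an unadjusted p under 0.05.

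Of 19 p53 target genes 3 rose and 1 fell, with a median of 0.06. Cdkn1a and Plk2 were joined by the cyclin gene Ccng1, which rose by 0.38 ± 0.08 (edgeR adjusted p = 0.00797), whereas Plk3 fell by 1.11 ± 0.28, a call lost in 7 of 12 fits that leave out a mouse. Mdm2, the feedback inhibitor of p53, had a value of -0.07 ± 0.08. Among 8 tested AP-1 family genes Maff fell by 1.5 ± 0.26 (edgeR adjusted p = 0.00203), with 0.159, 0.305 and 0.6 CPM in disrupted mice, against 0.862, 1.0 and 1.19 CPM in normal mice. Of 17 early growth response, NR4A and KLF genes Klf10 rose and Nr4a2 fell by 0.34 ± 0.09, and the call of Nr4a2 was lost in 11 of 12 such fits. Nfe2l2, the gene of the antioxidant regulator NRF2, fell by 0.37 ± 0.07 (edgeR adjusted p = 0.00576) as the single edgeR call of 19 antioxidant genes. In that list DESeq2 called Gclc, Nfe2l2 and Txn1, 1 higher and 2 lower. Dnajb4, the single edgeR call of 20 cytosolic heat shock genes, fell by 0.49 ± 0.10. The median of that list was -0.15, with -0.32 in males and -0.02 in females, and 7 genes were at an unadjusted p under 0.05. DESeq2 also called Dnaja1, Hspa8 and Hsph1 lower. The mitophagy receptor gene Bnip3, the single call of 28 genes of autophagy and the lysosome, fell by 0.41 ± 0.08. Sox9, a duct and progenitor factor gene on 2 of the lists, rose by 0.47 ± 0.12, a call lost in 9 of 12 such fits. Sec23b, of the coat of transport vesicles, fell by 0.34 ± 0.08, a call lost in 4. The cell cycle, cancer driver, Notch, interferon and inflammation lists held no call by edgeR, with medians of -0.17, -0.04, -0.21, 0.23 and 0.19 and with 5, 3, 3, 3 and 0 genes at an unadjusted p under 0.05. DESeq2 called 1 gene of these lists, Wee1, lower. The cell cycle median was -0.32 in males, 0.1 in females and 0.09 with the lymphocyte and adipocyte scores as covariates. The interferon median was 0.031 and the inflammation median -0.017 without disrupted female 1.

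Liver transcripts were high in some disrupted mice. Alb, the albumin gene, had 27.7, 13.7 and 4.81 CPM in disrupted males 1, 2 and 3 and 3.95, 1.33 and 0.816 CPM in disrupted females 1, 2 and 3, against 0.401 to 0.772 CPM in the normal mice. The groups did not overlap, but the lowest disrupted mouse was close to the highest normal mouse. The log2 fold change of 3.50 ± 0.77 (edgeR adjusted p = 0.0428) lost its call in 10 of 12 fits that leave out a mouse, with edgeR adjusted p up to 0.111 without normal male 3. Fgg, a fibrinogen gene, had 0.876, 0.63, 0.34 and 0.133 CPM in disrupted males 1, 2 and 3 and disrupted female 1, and no read in the other 2 disrupted and in the 6 normal mice. Over the summed counts of each group, with a floor of 3 counts for the normal mice, Fgg was at least 22.2-fold higher in the disrupted mice. This bound holds for the group and not for each mouse. Fgg was called (edgeR adjusted p = 0.0118) but passed the low-count filter through the disrupted mice alone, so the call is no separate evidence of a rise. Its call was lost in DESeq2's test (adjusted p = 0.079), without the sex block (edgeR adjusted p = 0.194), with 1 surrogate variable (edgeR adjusted p = 0.113) and with the lymphocyte and adipocyte scores as covariates (edgeR adjusted p = 0.352).

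Of the 11 tested hepatocyte markers, out of 17 listed, Alb and Fgg were called. The list median was 2.26, also with Fgg at its lower bound, and 10 of the 11 had a positive value. Fgg, without reads in normal mice, passed the low-count filter through the disrupted mice alone. Apob, Apoc3, Apoh, Fgb, Fga and Serpina1a were not tested. The median and the sign count therefore only describe the members that passed, and are no separate evidence of a rise. Over the members tested in each sex, the list median was 1.96 in males and 0.32 in females. Fgg was not tested in females, so these medians do not cover the same genes. With the lymphocyte and adipocyte scores as covariates the list median was 0.78. DESeq2 called 3 of the 11 higher, Alb, Ahsg and Apoa2. The summed markers had 12.3 to 53.8 CPM in disrupted mice, highest in disrupted male 1, and 10.0 to 23.1 CPM in normal mice. Further liver genes, named after their values were seen, were called from similar mice. Mup22, a major urinary protein gene, had 6.19 CPM in disrupted male 1 and 2.76 CPM in disrupted male 2, against at most 0.139 CPM in a normal mouse, and Serpina1b, an antitrypsin gene, had 1.72 CPM and 0.691 CPM in the same males, against at most 0.0556 CPM. Like Fgg, both passed the low-count filter through the disrupted mice alone, so their calls are no separate evidence of a rise. The calls of Mup22 and Serpina1b were lost in 10 and 3 of 12 fits that leave out a mouse. The other listed hepatocyte genes Ambp, at 0.01 ± 0.11, and Cyp2e1, at -0.16 ± 0.59, were not called.

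Markers of immune and other cells gave few calls. None of the 13 tested lymphocyte genes was called by edgeR, with a median of 1.57 and 8 at an unadjusted p under 0.05. DESeq2 called 3 of them higher, Cd4, Cd52 and Lck. The median was 0.66 without disrupted female 1, and in all 13 genes the median of the disrupted mice was above that of the normal mice. Of the 21 listed genes, Cd3d, Cd3e, Cd3g, Cd8a, Cd2, Cd5, Ccr7 and Cr2 were not tested. The list median and the sign count only describe the members that passed the filter. Markers of the same cells are not independent observations, so these values are no separate evidence of a rise. The summed level was 25.8 to 217 CPM in disrupted mice and 7.49 to 94.9 CPM in normal mice. The 7 MHC class II genes had a median of 0.50, or 0.15 without disrupted female 1, and the 14 macrophage genes one of 0.17, or 0.02 without that mouse, with no call by edgeR or DESeq2 and 0 genes at an unadjusted p under 0.05. Of the islet, ductal, fibroblast, endothelial, red blood cell, smooth muscle and nerve lists, the single call by edgeR was Sox9 in the ductal list, and DESeq2 added Kdr, higher, in the endothelial list. No listed marker was without reads in all 12 mice, and the part of these cells in the 456 calls was not tested beyond the fits with covariates and without single mice.

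The effect was compared between the sexes, which share no mouse. With 3 against 3 mice, 138 genes were called in males (1.08% of 12804), 83 higher (0.648%) and 55 lower (0.43%), and 143 in females (1.07% of 13373), 61 higher (0.456%) and 82 lower (0.613%). The calls shared by both were 56, which is 40.6% of the male and 39.2% of the female calls, and the 44 of them outside the core clock all had the same direction. Outside the core clock, 79 genes were higher in disrupted males, and of the 76 also tested in females all 76 were higher there too, 27 of them called, with a median female value of 0.57. Of 47 genes lower in disrupted males, 46 were tested in females and all were lower, 17 of them called, with a median of -0.49. In the other direction 56 of 57 genes higher in females and 70 of 71 lower in females kept their sign in males.

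The exceptions were the growth response gene Egr1, at 1.10 in females and -1.47 in males, and Fbp2, a fructose bisphosphatase gene, at -1.05 in females and 0.23 in males. Egr1 had 2.94, 3.78 and 3.03 CPM in disrupted females, against 1.17, 1.7 and 1.61 CPM in normal females, and 2.54, 1.95 and 3.04 CPM in disrupted males, against 6.21, 14.5 and 0.494 CPM in normal males. Normal male 3 lay below all other mice and normal males 1 and 2 above them. A test of the female minus male difference called no gene in edgeR, with 720 genes (5.29%) at an unadjusted p under 0.05. DESeq2 called 2 of 2788 genes that it gave an adjusted p (0.0717%), Hnrnpa2b1, an RNA-binding protein gene, with a female minus male difference of 0.51 (adjusted p = 0.00452), and the heat shock gene Hsp90aa1, with 0.55 (adjusted p = 0.03). Hsp90aa1 had a log2 fold change of 0.21 in females and -0.33 in males.

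**Figure D3:**
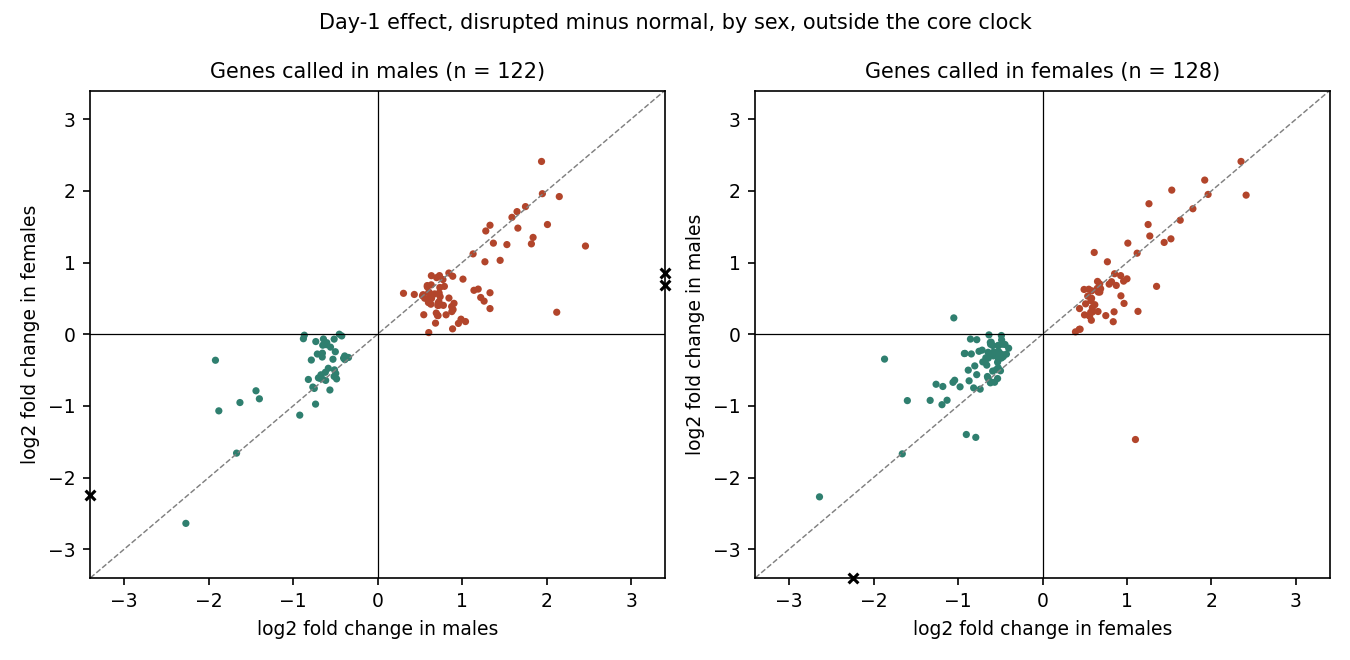
Log2 fold change of disrupted minus normal mice in 1 sex against the other, outside the core clock, for genes called in males (left, 122 genes) and genes called in females (right, 128 genes). The dashed line marks equal values and crosses at the edge mark genes beyond 3.4; nearly all points lie in the quadrants of equal sign, and the x axis holds the sex in which the genes were called.

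Late mice, day 8 in females and day 9 in males, gave a separate measurement of the same contrast, with other disrupted and other normal mice. There 189 of 14000 genes were called (1.35%), 80 higher (0.571%) and 109 lower (0.779%). Of the 218 genes that were higher in disrupted mice on day 1 outside the core clock, none was called higher late and 36 were called lower. Their median late value was -0.22, with 36 of positive and 177 of negative sign, and 5 had no read in any late mouse, all of them liver genes. Of the 222 genes that were lower on day 1, none was called lower late and 15 were called higher, with a median of 0.05 and with 98 of negative and 124 of positive sign. No day-1 call outside the core clock was called in the same direction in the late mice.

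The day-1 effect minus the late effect was called for 673 genes (4.81%), 347 higher (2.48%) and 326 lower (2.33%), 657 of them outside the core clock. Of the 440 day-1 calls outside the core clock, 285 were among them, 164 that were higher and 121 that were lower on day 1. These genes were selected on the day-1 values that enter the difference, so their count is a description. Usp2 differed by -3.34 (edgeR adjusted p = 2.48e-08), being higher by 0.89 in the late disrupted mice, and Coq10b by -1.82, with a late value of 0.67. Rassf3 differed by 1.17, with a late value of -0.48, and Azin1 by -1.08, with a late value of 0.33. Ranbp3l, with a late value of -1.46 (edgeR adjusted p = 0.000958), and Ypel2, with -1.09 (edgeR adjusted p = 0.00116), were also called in the opposite direction late. Herpud1 had a late value of 0.14 (edgeR adjusted p = 0.564) and Rhobtb1 one of -0.01 (edgeR adjusted p = 0.99).

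**Figure D4:**
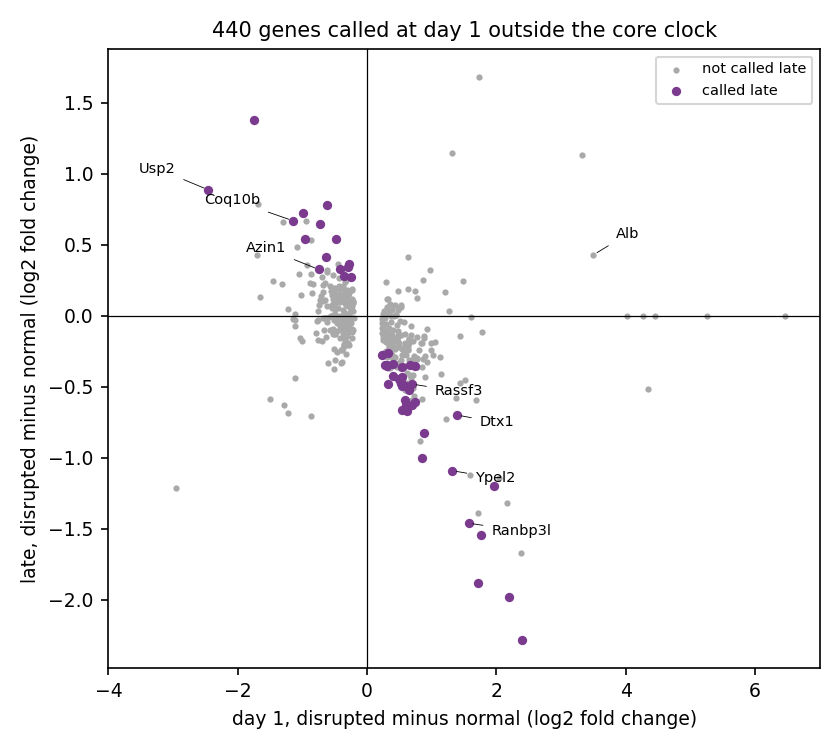
Log2 fold change of disrupted minus normal mice in the late mice (y axis) against that on day 1 (x axis) for the 440 genes called on day 1 outside the core clock, with the genes called late in purple. The purple points lie in the upper left and lower right quadrants, 15 genes lower and 36 genes higher on day 1, and the 5 liver genes without late reads lie on the zero line at the right.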

How the data were processed

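RNA-seq expected counts per gene, which the authors deposited for 24 mouse pancreas samples as 1 table, were used as given. Per the submitters' processing notes, bcl2fastq 2.20, STAR 2.5.3a, RSEM, edgeR 3.28.0 and the genome GRCm38.p5 were used. For the annotation release and the strand setting nothing is stated in those notes. All columns were matched to samples by name, and 0 columns were left out. Of 51912 gene identifiers, 51719 had a symbol in GENCODE M21, whose coordinates are printed.

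The deposited values were made whole by rounding, which changed 7.97% of values by at most 0.5. Genes passing filterByExpr (13605 for day 1) were scaled by TMM (factors 0.935 to 1.11) and fitted in edgeR 4.0.16 (R 4.3.3, limma 3.58.1) by the robust quasi-likelihood test with sex and condition as terms on the 12 day-1 mice. Common biological variation was 0.134. Late values and the day-1 minus late difference came from 1 fit of 8 group means over 24 mice and 14000 genes, and the female minus male difference from an interaction term on the day-1 mice. Standard errors are the log2 fold change divided by the square root of the test's F. P-values were adjusted over all genes tested (Benjamini-Hochberg, threshold 0.05). Levels are CPM, computed here from the counts and TMM library sizes without a length correction, so they are not compared between genes. Alternatives used DESeq2 1.42.0, sva 3.50.0, other scalings, filters and terms, and fits without each mouse. The fit was tested on simulated data with known changes before use.

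Named genes outside the core clock, without predicted symbols, were the 12 largest rises and falls without overlap at a mean log2 CPM of at least 0, the 10 smallest p, the 10 highest mean CPM, up to 4 called members per list by p, and up to 5 genes for each difference. Genes said to be named after their values were seen, and list members given for their values, fall outside it. Some genes are not reported here. The genes, lists and tests were chosen with earlier results of these data known. Nothing states that mice came from separate litters or cages, so p-values measure the spread between these samples. Promoter windows are from RefSeq, and 8105 tested genes had a single window.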

Additional observations from a re-analysis of the deposited data

Results flagged for a closer look

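Single mice stood apart from the other 5 of their group in 20 of 216 groups of values tested (9.26%), where chance alone gives about 1 in 20. Disrupted female 1 was far above the other disrupted mice in summed lymphocyte markers at 217 CPM (next 55.0), MHC class II at 197 CPM (next 77.0), macrophage at 134 CPM (next 67.1), adipocyte at 128 CPM (next 69.6) and smooth muscle at 15.5 CPM (next 9.1). Normal female 3 was far above the other normal mice in lymphocyte markers at 94.9 CPM (next 29.8), macrophage at 94.9 CPM (next 66.5), adipocyte at 88.9 CPM (next 54.3) and hepatocyte markers at 23.1 CPM (next 13.5). Red blood cell markers reached 179 CPM in normal male 1 (next 42.3).

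Among single genes, Usp2 was at 3.11 CPM in disrupted female 3 (next 2.4), Klf9 at 21.1 CPM in disrupted female 2 (next 15.6) and Mup3 at 2.32 CPM in disrupted male 1 (next 0.6). mt-Nd5 was at 714 CPM in disrupted female 3 (next 629) and at 437 CPM in normal female 3, the lowest of its group (next 515). Rhobtb1 was at 3.18 CPM in normal male 3 (next 2.77), Serpina3k at 0.129 CPM in normal male 1 (next 0.0309) and Pzp at 0 CPM in normal female 2, the lowest (next 0.0278). Total counts were 59811045 in disrupted male 3 (next 38899504) and 42369554 in normal female 2 (next 35040597).

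The day-1 effect differed from the late effect, by a test of the difference itself, in 673 genes. Among those named by the smallest p were Usp2 at -3.34 (edgeR adjusted p = 2.48e-08), Coq10b at -1.82 (2.48e-08), Azin1 at -1.08 (6.24e-08) and Rassf3 at 1.17 (5.81e-09).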

How the results depend on the processing

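Against 456 calls, 222 higher and 234 lower, lymphocyte and adipocyte scores as covariates gave 83 (48 and 35), males only 138 (83 and 55), females only 143 (61 and 82), and a minimum of 2-fold 77; the sex fits have fewer mice, and the cause of the drop with covariates was not tested. Leaving out each mouse gave 328 to 451 calls, 165 to 235 higher and 163 to 227 lower. DESeq2 gave 636 calls, all 24 mice 639, no low-count filter 600, 1 surrogate variable 400, no sex block 336, RLE scaling 461 and upper quartile scaling 454. With the replicate block there were 428 calls, 207 higher and 221 lower, and 343 of the 440 calls outside the core clock were among them. In their deviations from the group mean, same-numbered mice correlated at 0.0648, 0.0314 and 0.114 in males and at -0.211, 0.0307 and -0.181 in females. Differently numbered mice correlated at -0.105 to 0.0338 in males and at -0.162 to 0.28 in females. These weak values cannot tell whether equal numbers mark mice that were handled together. The day-1 minus late count of 673 was 527 to 718 on leaving out a mouse, 754 by DESeq2 and 790 without the filter. The female minus male count of 0 was 2 by DESeq2, 17 without the filter and 0 to 1 on leaving out a mouse. The genes were Mrpl23-ps1 without disrupted female 1 and Arl5b without normal female 3. Of 93 genes tracked, 30 kept their call with the covariates and 77 with the replicate block, and no log2 fold change of these genes was reversed under the alternatives run.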
